A study of Mus musculus with 12 samples.

Results

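Transcripts of 7 caspase and gasdermin genes other than Casp8 were followed in fibroblasts lacking Fadd or Casp8. They are Casp1, Casp4 and Casp12, the inflammatory caspases, Casp2 and Casp9, initiators of apoptosis, Casp6, an executioner, and Gsdmd, which encodes gasdermin D. They were taken by gene symbol from the deposited tables, 7 of 55573 genes, and each symbol matched 1 row. RNA sequencing covered 12 cultures of untreated mouse embryonic fibroblasts, 3 in each of 4 groups, harvested 24 h after plating. All cells were immortalised with SV40 large T antigen and labelled Mlkl -/-, so every group, the restored ones included, lacks the executor of necroptosis by its label. The Fadd/Mlkl knockout (Fadd -/-, Mlkl -/-) carried an empty vector, and the Fadd-restored cells were the same line with ectopic Fadd. The Casp8/Mlkl knockout (Casp8 -/-, Mlkl -/-) carried an empty vector, and the Casp8-restored cells had ectopic Casp8. These pairs are called the Fadd line and the Casp8 line. The labels describe 3 independent cultures per group and name no second line of either genotype, so p-values measure the spread between cultures of 1 line, and genotype and line of origin cannot be told apart.

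Caspases are proteases made as inactive precursors. Caspase-1 is activated in inflammasomes, where it matures interleukin-1 beta and interleukin-18, and mouse Casp4 encodes the protease also called caspase-11, which binds bacterial lipopolysaccharide in the cytosol. Both cut gasdermin D, whose freed part forms pores in the plasma membrane, the lytic death called pyroptosis. In mouse cells Casp1 and Casp4 transcripts are inducible by interferon and inflammatory signals, whereas the apoptotic caspases are mostly transcribed at steady levels and controlled by cleavage.

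Libraries held 33918359 to 59388559 counts. Levels below are CPM, the usual depth-scaled count, with library sizes adjusted by TMM, unless TPM, the length-scaled unit, is named. Fadd was at 0.0364 to 0.176 CPM in the Fadd/Mlkl knockout and 19.1 to 26.1 CPM in Fadd-restored cells. Casp8 was at 10.4 to 12.4 CPM in the Casp8/Mlkl knockout and 67.6 to 182 CPM in Casp8-restored cells, so some Casp8 transcript remained in the knockout. Mlkl averaged 6.37 to 10.6 CPM in the 4 groups, and gene counts do not show whether those reads span the deleted part. On the first principal component, with 51.7% of the variance, the replicate 1 libraries of the Casp8 line lay at 19.8 in the knockout and 32.0 in restored cells, whereas the other 4 libraries of that line lay between 73.1 and 92.3. The labels give no batch, and values without both replicate 1 libraries are given where they bear on a result. Summed fibroblast markers were at 2030 to 3120 CPM in the Fadd/Mlkl knockout, 3300 to 4660 CPM in Fadd-restored cells, 6630 to 18000 CPM in the Casp8/Mlkl knockout and 10100 to 14500 CPM in Casp8-restored cells, with Thy1 and Lum at or near 0. Fap and Dcn were low as well, with group means of 0.0912 to 0.259 CPM and 0.0602 to 0.914 CPM. Col1a2 averaged 1.22 CPM in the Fadd/Mlkl knockout and 256 CPM in Fadd-restored cells. It averaged 4320 CPM in the Casp8/Mlkl knockout and 4160 CPM in Casp8-restored cells. Of the 9 markers tested, 2 had a log2 change above 0 in the Fadd/Mlkl knockout over the Casp8/Mlkl knockout. The part of these markers in differences between the lines was not tested. Leukocyte markers summed to 4.72 to 16.5 CPM over all libraries.

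Casp4 and Gsdmd differed between the lines. Casp4 was also several-fold above its restored control in both lines without passing the adjusted test. The group means of Casp2 and of Casp9 stayed close together in all 4 groups. Of the 7 genes, 6 passed the filter on low counts, and Casp1 did not. With edgeR's quasi-likelihood test and Benjamini-Hochberg adjustment, none of the 6 was called at an adjusted p under 0.05 between the Fadd/Mlkl knockout and Fadd-restored cells, where 1.52% of 16396 genes were called. None was called between the Casp8/Mlkl knockout and Casp8-restored cells, where 0.0061% of genes were called, which is 1 gene. None was called for the difference between those changes either, against 0.842% of genes. DESeq2 and limma-voom also called 0 of the 6 in these comparisons, and the unadjusted edgeR p was under 0.05 for 1 gene in the Fadd line (Casp4), 2 in the Casp8 line (Casp4 and Gsdmd) and 0 for the difference, against 10.3%, 5.67% and 7.4% of all genes. Between the knockouts 1 of 6 was called, Casp4, against 10.5% of all genes. Between the restored groups 2 of 6 were called, Casp4 and Gsdmd, against 6.34%. The comparisons share libraries, so these counts are not independent of one another.

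**Figure D1:**
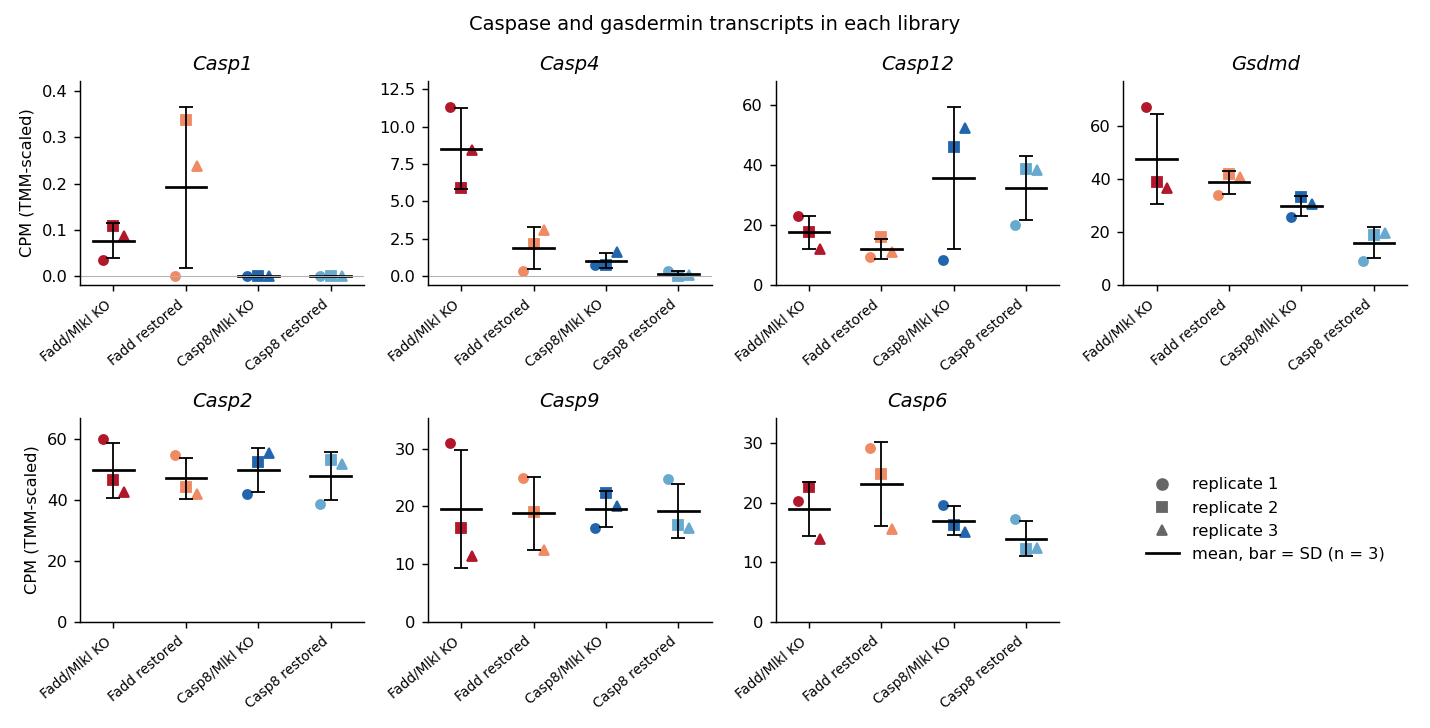
TMM-scaled CPM of the 7 genes in each of the 12 libraries, with the mean and SD of 3 libraries per group; marker shapes give the replicate number, and each panel has its own linear scale. Casp4 lies between 5.90 and 11.3 CPM in the Fadd/Mlkl knockout and at or below 3.08 CPM in every other library, while Casp2 lies between 38.7 and 59.9 CPM in all 12.

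Casp1, Casp4 and Casp12 lie side by side on chromosome 9 of GRCm38, the mm10 assembly, on the plus strand. GENCODE M21 places Casp1 at chr9:5298517-5307265, Casp4 at chr9:5308828-5336783 and Casp12 at chr9:5345430-5373032, with no other protein-coding gene within 500 kb. Their promoters are shown because these neighbours had unlike patterns in the libraries. Each sequence runs from 250 bases before to 50 bases after the RefSeq start (GRCm38.p6, plus strand), for Casp1 at chr9:5298267-5298566, for the first of 2 overlapping Casp4 starts at chr9:5308599-5308898, and for Casp12 at chr9:5345226-5345525. Capitals mark motif matches, which are a kappaB-like GGGNNTTTC on either strand in Casp4 and a gamma-activated-site TTCNNNGAA in Casp12.
Casp1: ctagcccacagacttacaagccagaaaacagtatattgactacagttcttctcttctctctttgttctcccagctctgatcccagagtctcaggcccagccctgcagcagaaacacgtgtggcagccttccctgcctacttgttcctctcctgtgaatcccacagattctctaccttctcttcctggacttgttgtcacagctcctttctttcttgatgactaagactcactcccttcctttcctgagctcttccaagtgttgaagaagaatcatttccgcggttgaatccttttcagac
Casp4: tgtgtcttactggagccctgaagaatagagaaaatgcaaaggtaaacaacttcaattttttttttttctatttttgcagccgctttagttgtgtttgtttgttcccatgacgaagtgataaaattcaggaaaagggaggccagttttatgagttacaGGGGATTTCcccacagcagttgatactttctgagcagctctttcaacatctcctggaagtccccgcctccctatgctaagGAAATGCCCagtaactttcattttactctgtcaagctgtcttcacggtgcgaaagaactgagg
Casp12: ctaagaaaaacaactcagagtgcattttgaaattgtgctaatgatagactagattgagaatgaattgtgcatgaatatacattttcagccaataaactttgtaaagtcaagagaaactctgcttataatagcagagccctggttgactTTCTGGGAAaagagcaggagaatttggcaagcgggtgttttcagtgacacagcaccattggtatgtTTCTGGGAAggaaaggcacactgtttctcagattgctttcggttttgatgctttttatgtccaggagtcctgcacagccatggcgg

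The Casp4 window held 2 kappaB-like matches, GGGGATTTC at position -93 and GAAATGCCC, read on the other strand, at -13. Of 32851 mouse promoter windows of that length, 4.36% held this motif. The Casp12 window held TTCTGGGAA at -102 and again at -36, a motif found in 8.30% of windows. The other, overlapping Casp4 window held the same 2 kappaB-like matches. Apart from it, neither motif was in the other windows of the 6 genes that have an entry, which are all but Gsdmd. An interferon-stimulated response element spelled GAAANNGAA (8.56% of windows) and a TATA box spelled TATAAA (13.6%) were searched on both strands and matched none of them, and the matches shown do not overlap one another. The chromosome 9 windows were poor in CG dinucleotides, with 3 in Casp1, 5 in Casp4 and 3 in Casp12, against 26 in Casp2, 16 in Casp6 and 28 in Casp9 and a median of 7 over all windows. A match is a run of letters, not a measured binding site.

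Casp4 was highest in cells without Fadd. It had 11.3, 5.90 and 8.41 CPM in the Fadd/Mlkl knockout, against 0.342, 2.17 and 3.08 CPM in Fadd-restored cells. It had 0.738, 0.713 and 1.61 CPM in the Casp8/Mlkl knockout, against 0.369, 0.0179 and 0.103 CPM in Casp8-restored cells. In each line all 3 knockout libraries lay above all 3 restored ones, as did 16.5% of genes in one direction or the other in the Fadd line and 10.7% in the Casp8 line. The log2 change was 2.19 in the Fadd line (SE 0.821, 95% interval 0.39 to 4), with an adjusted p of 0.332 in edgeR. In the Casp8 line it was 2.62 (SE 0.907, interval 0.63 to 4.62), with an adjusted p of 0.701 in edgeR. Neither passed the threshold, and the difference between these changes was -0.43 (SE 1.15), with an interval of -2.95 to 2.09 that allows differences in either direction.

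The size of the Casp4 contrast varied among cultures. Same-numbered cultures of the Fadd line gave knockout over restored ratios of 33.0, 2.72 and 2.73. Those of the Casp8 line gave 2.00, 39.8 and 15.6, and the 39.8 rests on 1 count in the restored library. The wide Fadd-line pair is replicate 1, whose restored library had 16 Casp4 counts against 90 and 142 in the other two. Without both replicate 1 libraries the log2 change was 1.44 in the Fadd line and 4.24 in the Casp8 line, with edgeR adjusted p of 0.86 and 0.13.

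Between the knockouts, Casp4 was 8.37-fold higher in the Fadd/Mlkl knockout than in the Casp8/Mlkl knockout. The log2 change was 3.07 (SE 0.857), adjusted p 0.0438 in edgeR, and the libraries did not overlap, as for 27.8% of genes. This call was close to the threshold: leaving out any single library raised the adjusted p to between 0.0651 and 0.167, and leaving out both replicate 1 libraries gave 2.63 with 0.126. Fadd-restored cells stood 11.3-fold above Casp8-restored cells (log2 3.50, SE 0.92, edgeR adjusted p 0.0474), although their ranges touched, since 0.342 CPM in Fadd-restored replicate 1 was below 0.369 CPM in Casp8-restored replicate 1. Without both replicate 1 libraries this was 5.40 with an adjusted p of 0.006, and leaving out single libraries gave adjusted p from 0.0158 to 0.19. The descending order was therefore Fadd/Mlkl knockout, Fadd-restored, Casp8/Mlkl knockout and Casp8-restored, in which, among neighbours, only Fadd-restored cells and the Casp8/Mlkl knockout overlapped. On the log2(TPM + 0.5) scale, which understates changes of low genes, the Casp4 changes were 1.81 in the Fadd line, 0.78 in the Casp8 line, 2.16 between the knockouts and 1.14 between the restored groups, and limma's adjusted p for the last was 0.135.

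Casp1 was close to absent. RSEM assigned it 2, 6 and 4 reads in the Fadd/Mlkl knockout, 0, 14 and 11 reads in Fadd-restored cells, and 0 reads in all 6 libraries of the Casp8 line. Unlike Casp4, it was not higher without Fadd in replicates 2 and 3, where the knockout had 0.109 and 0.0876 CPM and restored cells 0.337 and 0.239 CPM. A floor of 3 counts was set for each Casp8-line group. Scaled for library size, the 12 counts of the Fadd/Mlkl knockout were 3.07-fold above the floor of the Casp8/Mlkl knockout. The 25 counts of Fadd-restored cells were 9.66-fold above the floor of Casp8-restored cells. With no filter on low counts, edgeR gave adjusted p of 0.207 and 0.0874 for those comparisons. The floors cover counting error of the 0 counts only, not that of the 12 and 25 counts or the spread between cultures.

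Casp12 encodes a caspase of the endoplasmic reticulum that is grouped with the inflammatory caspases by sequence. It had 23.0, 17.8 and 12 CPM in the Fadd/Mlkl knockout, against 9.22, 15.8 and 11 CPM in Fadd-restored cells. It had 8.37, 46.1 and 52.2 CPM in the Casp8/Mlkl knockout, against 20.1, 38.6 and 38.2 CPM in Casp8-restored cells. Replicates 2 and 3 of both Casp8-line groups lay above every Fadd-line library, opposite to Casp4, and Casp8/Mlkl knockout replicate 1 was the lowest of all 12 libraries. The log2 change was 0.55 (SE 0.543) in the Fadd line and 0.14 (SE 0.539) in the Casp8 line, with edgeR adjusted p of 0.936 and 0.999. The Fadd/Mlkl knockout over the Casp8/Mlkl knockout gave -1.01 (SE 0.545, adjusted p 0.288 in edgeR) with all libraries. Without Casp8/Mlkl knockout replicate 1 it gave -1.48 with 0.0175, and without both replicate 1 libraries -1.72 with 0.0151. Between the restored groups the log2 change was -1.43 (SE 0.551, adjusted p 0.162), and those libraries did not overlap, as for 26.9% of genes.

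Gsdmd, on chromosome 15 at chr15:75862327-75867408, encodes the pore-forming target of caspase-1 and caspase-11. It had 67.2, 38.8 and 36.7 CPM in the Fadd/Mlkl knockout, against 33.9, 41.8 and 40.9 CPM in Fadd-restored cells. It had 25.8, 33.2 and 30.7 CPM in the Casp8/Mlkl knockout, against 9.18, 18.8 and 19.7 CPM in Casp8-restored cells. The Fadd-line groups overlapped, with a single high knockout library, whereas in the Casp8 line all 3 knockout libraries lay above all 3 restored ones. In that line the groups did not overlap, in either direction, for 10.7% of genes.

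The Gsdmd log2 change was 0.29 in the Fadd line (SE 0.30, interval -0.37 to 0.95, edgeR adjusted p 0.946). It was -0.04 without Fadd/Mlkl knockout replicate 1 and -0.13 without both replicate 1 libraries. In the Casp8 line it was 0.91 (SE 0.304, interval 0.25 to 1.58), with an unadjusted p of 0.0118 and an adjusted p of 0.666 in edgeR. Same-numbered cultures gave knockout over restored ratios of 2.81, 1.77 and 1.56 in that line and 1.98, 0.928 and 0.897 in the Fadd line. The difference between the changes, Fadd line minus Casp8 line, was -0.62 (SE 0.426, edgeR adjusted p 0.971), and without the replicate 1 libraries of all 4 groups it was -0.87 with 0.00873.

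Gsdmd was 2.45-fold higher in Fadd-restored than in Casp8-restored cells (log2 1.29, SE 0.306, edgeR adjusted p 0.0328). The libraries did not overlap, as for 26.9% of genes. Leaving out single libraries gave adjusted p between 0.0389 and 0.116, and leaving out both replicate 1 libraries gave 1.08 with 0.06. Between the knockouts the log2 change was 0.67 (SE 0.302), with no overlap, as for 27.8% of genes, and an adjusted p of 0.199 in edgeR. By their ranges, both Fadd-line groups lay above the Casp8/Mlkl knockout, which lay above Casp8-restored cells, while the Fadd/Mlkl knockout and Fadd-restored cells overlapped and have no order.

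**Figure D2:**
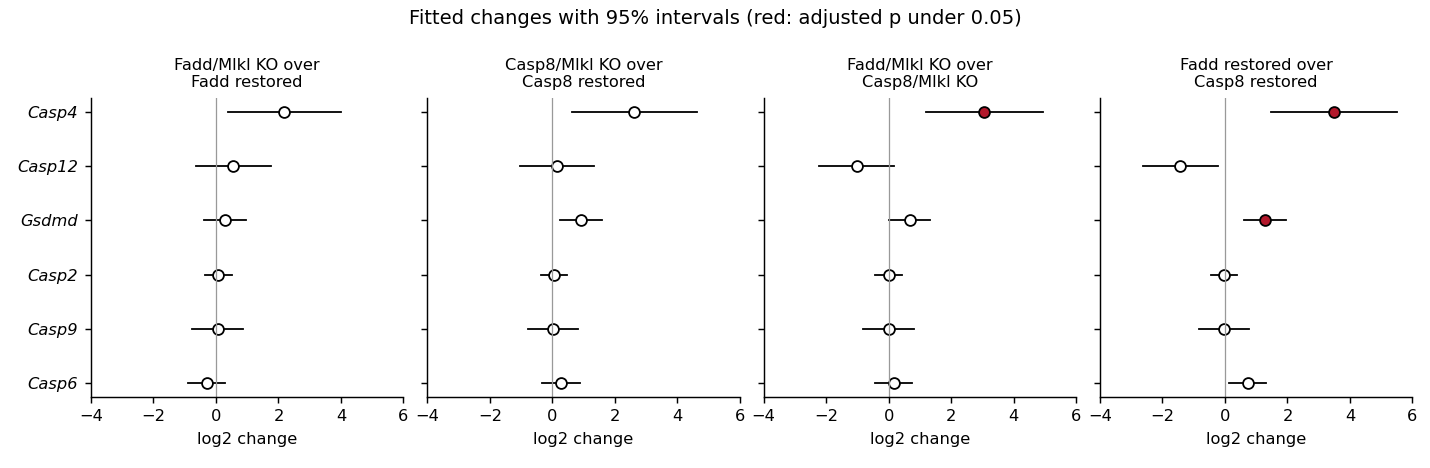
Fitted log2 changes of the 6 tested genes in 4 comparisons, with 95% intervals from edgeR's quasi-likelihood fit over all 12 libraries; filled red points have an adjusted p under 0.05 over 16396 genes. Filled points are Casp4 at 3.07 between the knockouts, and Casp4 at 3.50 and Gsdmd at 1.29 between the restored groups, while Casp2 and Casp9 sit near 0 in every panel.

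The initiator caspases of apoptosis were nearly level in their group means. Casp2, which is activated in the PIDDosome complex after excess centrosomes or DNA damage, had 59.9, 46.6 and 42.7 CPM in the Fadd/Mlkl knockout and 54.9, 44.4 and 41.9 CPM in Fadd-restored cells. It had 41.8, 52.4 and 55.3 CPM in the Casp8/Mlkl knockout and 38.7, 53.2 and 51.7 CPM in Casp8-restored cells. All 4 groups overlapped, and the 4 log2 changes lay between -0.03 and 0.08 with SE 0.193. The interval in the Fadd line, -0.35 to 0.51, bounds what these libraries could have missed. Casp2 lies at chr6:42264985-42282508, and the small RNA gene annotated inside it, Gm25108, had 0 counts.

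Casp9, activated on the apoptosome by cytochrome c and Apaf1, had close group means but varied more among cultures. It had 31.1, 16.2 and 11.3 CPM in the Fadd/Mlkl knockout and 25.0, 19.0 and 12.4 CPM in Fadd-restored cells. It had 16.2, 22.3 and 20.1 CPM in the Casp8/Mlkl knockout and 24.7, 16.8 and 16.2 CPM in Casp8-restored cells. The groups overlapped throughout, and in the Fadd line both replicate 1 cultures were the highest and both replicate 3 cultures the lowest. The log2 changes lay between -0.03 and 0.05, each with SE 0.366, and the Fadd-line interval was -0.75 to 0.86. Between the knockouts, replicate 1 ran opposite to replicates 2 and 3, so the change near 0 is a balance of unlike cultures. Leaving out 1 library at a time moved it from -0.506 to 0.268, and the other settings from -0.624 to 0.00482, with no call. Casp9 (chr4:141793612-141815976) overlaps Cela2a and Ctrc on the opposite strand, and both had 0 counts.

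Casp6, an executioner that cuts nuclear lamins, had 20.3, 22.6 and 13.9 CPM in the Fadd/Mlkl knockout, against 29.3, 24.8 and 15.5 CPM in Fadd-restored cells. It had 19.7, 16.2 and 15.1 CPM in the Casp8/Mlkl knockout, against 17.3, 12.2 and 12.4 CPM in Casp8-restored cells. Each Fadd-line culture without Fadd was below its same-numbered restored culture (0 of 3 higher), and each Casp8-line culture without Casp8 was above it (3 of 3 higher), although the groups overlapped in both lines. The log2 changes were -0.29 (SE 0.27) and 0.28 (SE 0.27), and their difference was -0.57 (SE 0.382) with an adjusted p of 0.959 in edgeR. Fadd-restored over Casp8-restored cells gave 0.73 (SE 0.271, edgeR adjusted p 0.147). The gene lies at chr3:129901425-129914103.

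Per transcript length, the make-up of the 7 genes differed among the groups. In deposited TPM, Gsdmd led in the Fadd/Mlkl knockout with a level of 24.5 ± 9.06, followed by Casp2 at 10.6 ± 1.79, Casp6 at 8.56 ± 2.42, Casp12 at 5.45 ± 1.81, Casp4 at 4.11 ± 1.12, Casp9 at 3.14 ± 1.55 and Casp1 at 0.0267 ± 0.0208 (SD, n = 3). In Casp8-restored cells the leading TPM levels were Casp2 at 11.8 ± 1.26 and Casp12 at 11.4 ± 3.47, which overlapped, then Gsdmd at 8.39 ± 2.25, Casp6 at 7.12 ± 1.72 and Casp9 at 3.48 ± 1.03, with Casp4 at 0.09 ± 0.0917 (SD, n = 3). As a share of the TPM summed over the 7 genes, Gsdmd made up 42.9 ± 4.29% in the Fadd/Mlkl knockout, 40.7 ± 5.16% in Fadd-restored cells, 30.2 ± 4.29% in the Casp8/Mlkl knockout and 19.6 ± 3.61% in Casp8-restored cells. Casp4 made up 7.43 ± 1.82% in the Fadd/Mlkl knockout, 1.92 ± 1.62% in Fadd-restored cells, 0.984 ± 0.455% in the Casp8/Mlkl knockout and 0.229 ± 0.25% in Casp8-restored cells (SD, n = 3). Casp12 took 9.55 ± 0.822% and 8.04 ± 2.57% in the Fadd/Mlkl knockout and Fadd-restored cells, and 22.6 ± 13.2% and 26.6 ± 5.92% in the Casp8/Mlkl knockout and Casp8-restored cells. Shares within a sum move against one another, and no test was run on them.

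**Figure D3:**
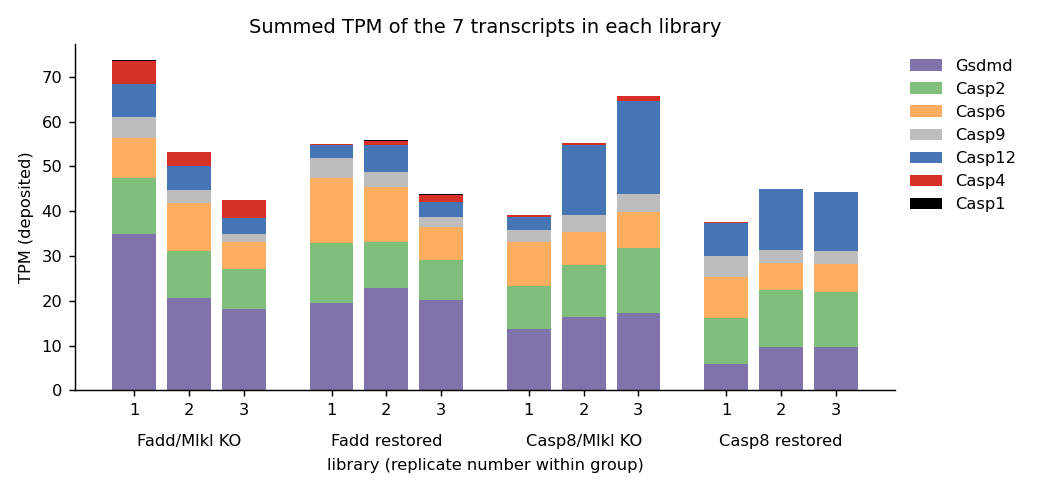
Deposited TPM of the 7 genes stacked in each library, grouped by genotype, with the replicate number under each bar. Summed TPM runs from 37.5 in Casp8-restored replicate 1 to 73.7 in Fadd/Mlkl knockout replicate 1, with the Casp4 segment widest in the Fadd/Mlkl knockout and the Casp12 segment widest in Casp8/Mlkl knockout replicates 2 and 3.

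Other genes tracked some of these patterns within the lines. Likeness was the root mean square difference between 2 genes' log2 CPM over 12 libraries, taken across 12812 genes, and is given as a description. Each gene was first centred on its mean in each line, so differences between the lines do not enter. The genes most like Casp4 were Enpp2 at 0.632 and Mndal, an interferon-inducible gene, at 0.637. The root mean square of Casp4's own centred values was 1.43, so these matches were loose. The nearest to Gsdmd were Npdc1 at 0.172 and Sgk3 at 0.215, and the nearest to Casp12 were Maml2 at 0.252 and Adgra2 at 0.257. Casp2 lay nearest to Ap3b1 at 0.0527, Casp6 to Sgtb at 0.088 and Casp9 to Map1lc3a at 0.117.

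Most of the partners that would use Casp1 were scarce. Of 16 inflammasome sensors and adaptors, 3 passed the filter, Naip2, Nek7 and Txnip. Over the 12 libraries together, the sensors Nlrp1a, Nlrp1b and Nlrc4 had 0 counts, Nlrp3 had 7 and the adaptor Pycard had 3. The substrate Il1b had 0 counts and the cytokine gene Il1a had 2. The other substrate, Il18, had 457 counts and passed the filter. It averaged 0.26 CPM in the Fadd/Mlkl knockout, 0.959 CPM in Fadd-restored cells, 1.16 CPM in the Casp8/Mlkl knockout and 0.943 CPM in Casp8-restored cells. Its log2 change was -1.87 (SE 0.683) in the Fadd line and 0.29 (SE 0.645) in the Casp8 line, with edgeR adjusted p of 0.314 and 0.999. Naip2 passed the filter only through the Fadd line, with 20 reads summed over the Casp8/Mlkl knockout and 25 over Casp8-restored cells, so it had to differ between the lines, and its values there are a description. This sensor of bacterial secretion systems had log2 changes of 0.11 (SE 0.427) in the Fadd line and 0.02 (SE 0.493) in the Casp8 line. It had 1.51, 1.44 and 1.14 CPM in the Fadd/Mlkl knockout, against 0.207, 0.161 and 0.117 CPM in the Casp8/Mlkl knockout (log2 3.04, SE 0.485). Fadd-restored cells exceeded Casp8-restored cells by 2.95 on the log2 scale (SE 0.478).

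A list of 13 genes placed upstream of Casp4 was read next. It joined lipopolysaccharide sensing genes with Tlr3, GTPases of the interferon response (Irgm1, Irgm2 and Gm12250) and guanylate-binding proteins. The guanylate-binding proteins expose bacterial lipopolysaccharide to caspase-11. In the Fadd line, 1 of 13 rose and none fell, where 1.52% of all 16396 genes were called. All 13 log2 changes were above 0, the smallest being 0.003 for Tlr4. Their median was 1.35, against 0.00 over all genes. In the Casp8 line edgeR called none of the 13, and 6 had an unadjusted edgeR p under 0.05, against 5.67% of all genes. DESeq2 called 3 of the 13, where it called 143 genes in all, and limma-voom called 0. In that line 9 of 13 were above 0 with a median of 1.22, against 0.01 over all genes. Those below 0 were the list's lipopolysaccharide sensing genes, Tlr4 (-0.30), Ly96 (-0.18), Cd14 (-0.30) and Ticam1 (-0.01). In the Fadd line these gave 0.003, 0.38, 0.70 and 0.29, all below the list's median. The gene that rose in the Fadd line was Gm12250, the symbol for Irgb10, a GTPase of the interferon response. It had 13.2, 2.18 and 3.02 CPM in the Fadd/Mlkl knockout, against 0.0213, 0.482 and 0.304 CPM in Fadd-restored cells (log2 4.51, SE 0.965, edgeR adjusted p 0.0454). With the replicate number as a block its change was 4.09 with an adjusted p of 0.119, and without both replicate 1 libraries it was 2.72 with 0.133. Its call was lost in 6 of 6 fits that left out 1 library, with edgeR adjusted p from 0.0522 to 0.152. In the Fadd line limma-voom called 0 of the 13, and DESeq2 called 4, where it called 697 genes in all.

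Gbp3 had 253, 47.4 and 60.0 CPM in the Fadd/Mlkl knockout, against 4.53, 25.2 and 29.0 CPM in Fadd-restored cells. It had 3.27, 17.9 and 15.5 CPM in the Casp8/Mlkl knockout, against 3.36, 0.789 and 1.13 CPM in Casp8-restored cells. As with Casp4, the widest gap in the Fadd line was in replicate 1, and in the Casp8 line the gap was in replicates 2 and 3. Its log2 changes, 2.62 (SE 0.911) and 2.80 (SE 0.94), had edgeR adjusted p of 0.283 and 0.675. The guanylate-binding genes are close paralogs, and how reads fall among them depends on the authors' counting. Without both replicate 1 libraries, the list's median was 0.60 in the Fadd line and 1.84 in the Casp8 line, and none of its 13 genes was called in either.

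Of 10 transcription factors known to act on Casp1, Casp4 or Gsdmd, 1 rose in the Fadd line, Relb, and none fell, where 1.52% of all genes were called. With all libraries the 10 log2 changes were above 0 in both lines, with medians of 1.04 in the Fadd line and 0.77 in the Casp8 line. In the Casp8 line edgeR, DESeq2 and limma-voom called 0, and 4 had an unadjusted edgeR p under 0.05, against 5.67% of all genes. Without Fadd/Mlkl knockout replicate 1 the Fadd-line median was 0.50, with 9 of 10 above 0. Without both replicate 1 libraries the medians were 0.31 in the Fadd line, with 9 of 10 above 0, and 1.1 in the Casp8 line, and none of the 10 was called in these fits. Relb, an NF-kappaB subunit, had 79.4, 50.1 and 53.2 CPM in the Fadd/Mlkl knockout, against 29.0, 33.1 and 34.7 CPM in Fadd-restored cells (log2 0.92, SE 0.184, edgeR adjusted p 0.0338). With the replicate number as a block it was 0.89 with an adjusted p of 0.0643, and without both replicate 1 libraries 0.61 with 0.145. The Relb call was lost in 5 of 6 fits that left out 1 library, with edgeR adjusted p from 0.0442 to 0.159. Irf7, which amplifies interferon signalling, had 450, 44.3 and 70.7 CPM in the Fadd/Mlkl knockout, against 1.73, 13.0 and 9.22 CPM in the Casp8/Mlkl knockout (log2 4.56, SE 1.05, edgeR adjusted p 0.0188). Without Fadd/Mlkl knockout replicate 1, the library at 450 CPM, the Irf7 change was 2.85 with an adjusted p of 0.0615, while leaving out each library in turn lost the call in 3 of 6 fits, with adjusted p up to 0.0739. Irf2, a factor known for Gsdmd transcription, had 16.1, 7.43 and 5.45 CPM in the Fadd/Mlkl knockout, against 6.77, 5.18 and 5.25 CPM in Fadd-restored cells, and its change of 0.75 (SE 0.436) had an adjusted p of 0.688 in edgeR. In bulk RNA, fewer cells expressing a gene and less RNA per cell cannot be told apart, for these factors as for the caspases.

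**Figure D4:**
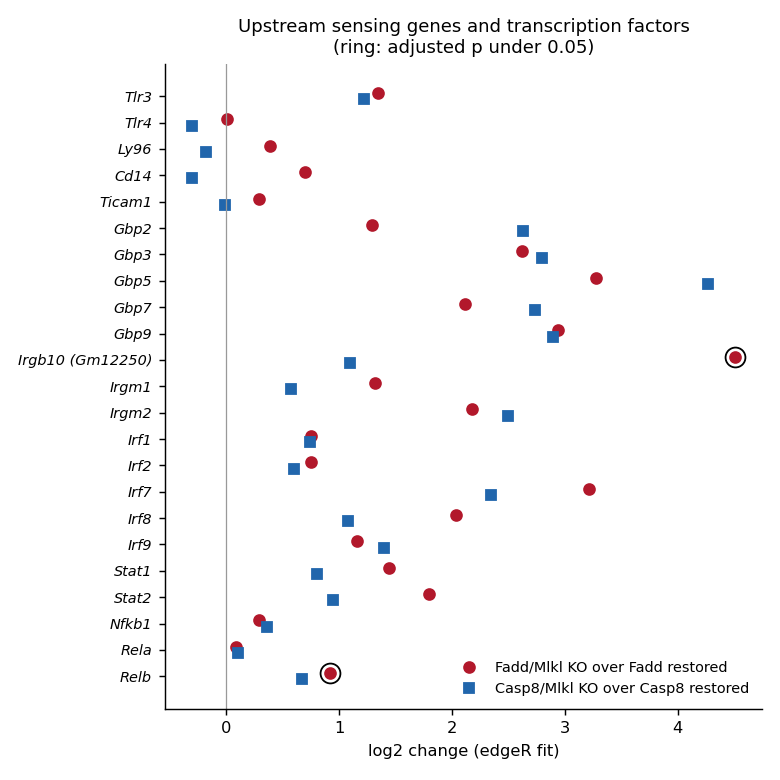
Log2 changes of the 13 genes listed upstream of Casp4 and 10 transcription factors, knockout over restored. Circles are the Fadd line, squares the Casp8 line, and a ring marks an adjusted p under 0.05. The ringed points are Gm12250 at 4.51 and Relb at 0.92, both in the Fadd line, and Rela lies near 0 in both lines.

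The partners of Casp9 and Casp2 were mostly level within the lines. Of 11 apoptosome genes and inhibitors, none was called within a line by edgeR. An unadjusted edgeR p was under 0.05 for 2 in each line, against 10.3% of all genes in the Fadd line and 5.67% in the Casp8 line. DESeq2 called 1 in the Fadd line, where it called 697 genes in all, and 0 in the Casp8 line, and limma-voom called 0 in both. All 5 PIDDosome genes were tested, and edgeR and limma-voom called none in these 4 comparisons. DESeq2 called 1, between the restored groups, where it called 2058 genes in all. An unadjusted edgeR p was under 0.05 for 1 in the Fadd line, against 10.3% of all genes, 1 between the restored groups and 0 in the others. Downstream of Gsdmd, Ninj1, which ruptures the plasma membrane after pores form, had 38.8, 36.8 and 34.9 CPM in the Fadd/Mlkl knockout, against 21.0, 20.1 and 17.4 CPM in the Casp8/Mlkl knockout (log2 0.92, SE 0.172, edgeR adjusted p 0.00685). Its groups did not overlap, as for 27.8% of genes. Ninj1 was also higher in Fadd-restored than in Casp8-restored cells (log2 0.80, SE 0.172, edgeR adjusted p 0.0227). That call was lost in 5 of 6 fits that left out 1 library. Within the lines its changes were 0.45 (SE 0.17) in the Fadd line and 0.33 (SE 0.171) in the Casp8 line, neither called. Their difference was 0.12 (SE 0.241). Gsdme was the only other gasdermin to pass the filter and gave 0.04 (SE 0.673) in the Fadd line and 0.49 (SE 0.68) in the Casp8 line.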

How the data were processed

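Total RNA of 12 cultures was made into stranded libraries, and per the labels' protocols the authors trimmed reads with Cutadapt in Trim Galore (0.5.0), aligned them with STAR (2.7.5a) to mm10 with GENCODE M22 and counted genes with RSEM. Per the file headers each gene has an RSEM expected count and a TPM, both deposited by the authors, besides FPKM, which was not used. Of the counts above 0, 96.05% were whole. The 92 spike-in rows held 0 counts and were left out.

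Expected counts were rounded and fitted in edgeR 4.0.16 (R 4.3.3) with the quasi-likelihood test, TMM scaling, filterByExpr at a minimum count of 10, and 1 mean per group over 12 libraries. Benjamini-Hochberg adjustment ran over 16396 genes, genes were called under 0.05, and the common biological coefficient of variation was 0.37. SE is the fitted change over the root of its F statistic. TPM served for levels between genes, for shares of their sum and for an alternative scale. Protein-coding genes made up 25.34 to 36.13% of summed TPM. Gene positions came from GENCODE M21 and promoters from RefSeq.

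Groups came from the labels. Same-numbered libraries deviated together within a line (correlations 0.68, 0.433 and 0.674 in the Fadd line, 0.199, 0.31 and 0.122 in the Casp8 line), so a replicate block was an alternative, as were DESeq2 1.42.0, limma-voom (limma 3.58.1), other scaling and filters, limma on log2(TPM + 0.5), and leaving out libraries. Across the lines these correlations were 0.324, 0.177 and 0.249 between the restored groups, much like those of the Casp8 line. Between the knockouts they were -0.269, 0.0638 and -0.386. Members, lists and motifs were chosen with earlier results of these data known. Named pathway genes are the called ones, and others named beside them were chosen after their values were seen. Alternatives for lists were added after seeing the data. Some list genes are not reported here.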

Additional observations from a re-analysis of the deposited data

How the results depend on the processing

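The members kept the direction of every called change under every alternative run, and calls were gained or lost as follows. Leaving out 1 library at a time, members called ranged from 0 to 1 between the knockouts and from 0 to 2 between the restored groups. Between the knockouts the Casp4 call was lost in 6 of these 6 fits, and the call that appeared in 1 of them was Casp12. Without both first libraries, too, Casp4 lost its call between the knockouts (edgeR adjusted p 0.126) and Casp12 gained one (0.0151). Between the knockouts 0 were called with a replicate block over all samples. Between the restored groups 1 was called by limma-voom, limma on log2 TPM, the replicate block over all samples and without both first libraries, and 0 in a fit of the samples of the contrast alone. For the difference between lines 1 was called without the first libraries. The replicate block within each line changed no call of a member, and all genes called became 444 in the Fadd line, 6 in the Casp8 line and 239 for their difference, against 250, 1 and 138. 

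All genes called came to 697, 143, 420, 2753 and 2058 with DESeq2 (Fadd line, Casp8 line, difference, knockouts, restored groups), against 250, 1, 138, 1718 and 1039. Without both first libraries they were 111, 111, 1842 and 2690 for the first 4. In the Casp8 line they were 4 with no filter, 3 on log2 TPM and 0 with the contrast alone. The difference gave 86 on log2 TPM, and the knockouts gave 1046 with the contrast alone. Leaving out 1 library at a time they ranged from 103 to 181 in the Fadd line, 0 to 22 in the Casp8 line, 90 to 241 for the difference, 829 to 2558 between the knockouts and 301 to 2251 between the restored groups. The causes were not tested.

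Signs that turned belong to changes near 0 or with wide intervals, none of them called. Between the knockouts, Casp2 was 0.00121 with DESeq2 and 0.00102 with RLE size factors, Casp9 was 0.00477 and 0.00482, and Casp6 was -0.00858 on log2 TPM. Between the restored groups the contrast alone gave Casp2 0.0179 and Casp9 0.00833. In the Fadd line Casp2 was -0.0247 and Casp9 -0.0991 on log2 TPM, Casp9 was -0.0171 with the replicate block, and Casp9 was -0.192 and Gsdmd -0.131 without both first libraries. In the Casp8 line Casp12 was -0.212 with limma-voom, -0.123 on log2 TPM and -0.165 with the replicate block. For the difference, log2 TPM gave Casp2 -0.0359, Casp4 1.03 and Casp9 -0.11, limma-voom gave Casp9 -0.0382, the replicate block gave Casp9 -0.0602, and leaving out the first libraries gave Casp9 -0.559 and Casp12 -0.20.

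With 1 library left out at a time, these ranges crossed 0. Casp2 ran from -0.0745 to 0.241 in the Fadd line, -0.0961 to 0.166 in the Casp8 line, -0.13 to 0.201 for the difference, -0.155 to 0.0928 between the knockouts and -0.173 to 0.0584 between the restored groups. Casp9 ran from -0.451 to 0.362, -0.0841 to 0.226, -0.476 to 0.353, -0.506 to 0.268 and -0.313 to 0.206 in the same order. Casp12 ran from -0.244 to 0.603 in the Casp8 line and -0.0544 to 0.794 for the difference, Casp4 from -1.81 to 0.191 for the difference, and Gsdmd from -0.0402 to 0.458 in the Fadd line. A single count, as for Casp4 in Casp8-restored replicate 2, limits what low values can show.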

Other observations

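Genes around interleukin-1 and purine signalling, which act beside the inflammatory caspases, were read in the same fit, and those named here were chosen after their values were seen. P2rx7, the ATP-gated channel that can trigger inflammasomes, had 14, 2.15 and 1.60 CPM in the Fadd/Mlkl knockout, against 0.161, 0.575 and 0.439 CPM in the Casp8/Mlkl knockout (log2 3.91, SE 0.994, edgeR adjusted p 0.0291). The groups did not overlap, as for 27.8% of genes, and leaving out 1 library at a time gave adjusted p from 0.0261 to 0.113. Without the library at 14 CPM the change was 2.25, with the adjusted p of 0.113. Il1rn, the interleukin-1 receptor antagonist, had 0.622, 15.8 and 16.0 CPM in the Casp8/Mlkl knockout, against 1.92, 3.78 and 2.43 CPM in Casp8-restored cells, so the replicate 1 pair ran opposite to the other pairs (log2 1.99, SE 1.11, edgeR adjusted p 0.927). Aim2, a DNA sensor that activates caspase-1, had 57 of its 79 counts in 1 library, Casp8-restored replicate 1, at 1.11 CPM, against 0 in the other libraries of that group, and was too low to test.

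Casp12 acts at the endoplasmic reticulum, and of 10 genes for its stress response and calpains, 2 were called between the knockouts (Atf6, higher, and Capn2, lower, in the Fadd/Mlkl knockout), against 10.5% of all genes. Between the restored groups 2 were called (Atf6, higher, and Xbp1, lower, in Fadd-restored cells), against 6.34%. Atf6, a stress sensor, had 109, 93.4 and 87.9 CPM in the Fadd/Mlkl knockout, against 76.4, 64.7 and 62.4 CPM in the Casp8/Mlkl knockout (log2 0.52, SE 0.139, edgeR adjusted p 0.0373), and its change between the restored groups was 0.60 (adjusted p 0.0297). Xbp1, a factor of the unfolded protein response, was lower in Fadd-restored cells, with 64.5, 54.8 and 33.4 CPM, against 90.7, 140 and 134 CPM in Casp8-restored cells (log2 -1.26, SE 0.326, edgeR adjusted p 0.0447). Capn2, a calpain subunit, was lower in the Fadd/Mlkl knockout, with 169, 219 and 185 CPM, against 411, 413 and 366 CPM in the Casp8/Mlkl knockout (log2 -1.06, SE 0.26, edgeR adjusted p 0.025). The groups did not overlap for Atf6, Xbp1 or Capn2 in these comparisons, as for 27.8% of all genes between the knockouts and 26.9% between the restored groups. Hspa5, the reticulum's main chaperone, gave -0.18 (SE 0.193) in the Fadd line and -0.04 (SE 0.193) in the Casp8 line, and none of the 10 genes of that list was called within a line by edgeR, by DESeq2 or by limma-voom, and 0 had an unadjusted p under 0.05. The Atf6, Xbp1 and Capn2 calls each missed the threshold in 5 of 6 fits that left out 1 library.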
